A study of Mus musculus with 18 samples.

Results

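The GTPases of immunity-associated proteins (GIMAPs) were examined in regulatory T cells (Tregs), the CD4+ T cells that restrain immune responses, with and without the chromatin remodeler CHD8. The members were the 8 GIMAP genes Gimap1, Gimap3, Gimap4, Gimap5, Gimap6, Gimap7, Gimap8 and Gimap9, chosen by name from the 35869 names of the RNA table. All 8 were listed, and all 8 were among the 15240 genes tested. RNA-seq had been made from splenic CD4+ T cells sorted for yellow fluorescent protein (YFP), with 2 WT and 2 Chd8-/- libraries.

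The Chd8-/- libraries carried the label CHD8Flox/FloxFoxp3YFP-Cre, in which Cre made from the Foxp3 locus, and hence in Foxp3-expressing cells, deletes floxed Chd8. The WT libraries carried the label CHD8flox/floxFoxp3YFP-Cre/+, in which Chd8 is floxed too and YFP-Cre sits on 1 of the Foxp3 copies, whereas the study describes its WT mice as Chd8+/+. The groups were used as WT and Chd8-/-, as the sample names give them. All 4 libraries were labelled as spleen, as Treg cells and as given a poly IC injection, so none of these differed between the genotypes. The study describes Chd8-/- mice as sick and short-lived, and an effect of Chd8 loss inside Tregs cannot be told apart from that of the inflamed host. By the methods the mice were sex-matched littermates, 5 to 7 weeks old.

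GIMAPs are GTPases, several of which sit on the membranes of the endoplasmic reticulum, lysosomes and other organelles. Their genes lie side by side in 1 cluster in mammals. The GIMAPs are best known from lymphocytes, in which loss of Gimap5 or Gimap1 leaves mature T cells short-lived. Several members meet the machinery of survival and autophagy, among them BCL2 family proteins, GSK3 and the ATG8 proteins that coat autophagosomes. As background, the family is abundant in resting T cells and several of its members fall when T cells are activated, which is why genes of resting T cells and of activated Tregs are given beside it.

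The 8 genes lay on chromosome 6 of GRCm38 (mm10), over 123.7 kb from base 48647186 to base 48770851. In order along the chromosome they were Gimap8 (48647186 to 48660875, plus strand), Gimap9 (48676121 to 48679116, plus), Gimap4 (48684578 to 48692062, plus), Gimap6 (48701583 to 48708244, minus), Gimap7 (48718621 to 48724636, plus), Gimap1 (48739047 to 48743795, plus), Gimap5 (48746197 to 48754200, plus) and Gimap3 (48764464 to 48770851, minus). Their exons together covered between 1269 bases in Gimap7 and 3748 bases in Gimap8. Over the 28 pairs of members the longest coding sequences were between 30.0% and 86.8% identical when aligned end to end. Gimap3 and Gimap5 formed the closest pair at 86.8%, Gimap9 and Gimap7 came next at 64.1%, and Gimap1 and Gimap5 followed at 55.9%.

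The resemblance of Gimap3 and Gimap5 bears on how far their reads can be told apart, so the longest coding stretch that they shared is shown. It ran for 140 bases, from coding base 175 to 314 of Gimap3 (chr6:48765681-48765820, minus strand) and from coding base 187 to 326 of Gimap5 (chr6:48752684-48752823, plus strand) of GENCODE M21 on GRCm38, and it occurred at only these 2 places on chromosome 6.
Gimap3 and Gimap5: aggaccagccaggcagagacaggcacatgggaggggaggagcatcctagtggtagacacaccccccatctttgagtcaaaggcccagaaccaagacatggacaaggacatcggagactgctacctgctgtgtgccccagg
A read inside this stretch has no base that tells the genes apart. Runs of 50 bases shared between the 2 genes made up 7.52% of all such runs in the transcripts of Gimap3 and 4.53% of those of Gimap5, and the other 6 members shared none with any member. How the authors' counting treated reads with more than 1 position is not given in the sources used here, so both levels are uncertain. The uncertainty is larger for Gimap5 than its own share of runs shows. Gimap3 had about 13633 to 21360 reads per library and Gimap5 only about 317 to 522. Reads from the shared part of Gimap3 could therefore outnumber all reads of Gimap5, and their part in its level was not tested.

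The upstream sequences of the 2 closest pairs are shown next, because these genes resemble each other in their coding bases and differed in RNA level. Each RefSeq window runs from 250 bases before the start of the gene to 50 bases after it, is written 5′ to 3′ on the strand of the gene and uses the GRCm38.p6 build. Capitals mark AGGAAG or its reverse CTTCCT (an ETS motif), TGTGGT or ACCACA (a RUNX motif), and CCCGCCC or GGGCGGG (a KLF motif). These were searched on both strands, and no match overlapped another. ETS1, RUNX1 and KLF2 are factors that resting T cells contain.
Gimap3 (chr6:48770802-48771101, minus strand): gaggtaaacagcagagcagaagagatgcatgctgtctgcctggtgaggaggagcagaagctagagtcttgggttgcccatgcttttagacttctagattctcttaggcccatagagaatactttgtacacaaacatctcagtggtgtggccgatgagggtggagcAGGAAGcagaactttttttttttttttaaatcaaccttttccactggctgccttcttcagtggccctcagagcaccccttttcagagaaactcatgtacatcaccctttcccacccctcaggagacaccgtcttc
Gimap5 (chr6:48745947-48746246, plus strand): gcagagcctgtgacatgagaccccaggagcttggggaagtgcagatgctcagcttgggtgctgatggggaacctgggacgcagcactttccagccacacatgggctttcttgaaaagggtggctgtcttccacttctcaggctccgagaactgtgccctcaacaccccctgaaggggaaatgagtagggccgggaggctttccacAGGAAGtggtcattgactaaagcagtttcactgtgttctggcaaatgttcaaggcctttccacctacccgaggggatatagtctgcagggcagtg
Gimap9 (chr6:48675885-48676184, plus strand): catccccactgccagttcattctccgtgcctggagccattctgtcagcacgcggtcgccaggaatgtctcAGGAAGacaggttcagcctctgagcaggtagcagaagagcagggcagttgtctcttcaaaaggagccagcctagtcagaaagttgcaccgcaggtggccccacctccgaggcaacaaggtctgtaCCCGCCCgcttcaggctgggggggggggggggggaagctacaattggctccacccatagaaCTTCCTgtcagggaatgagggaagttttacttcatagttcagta
Gimap7 (chr6:48718371-48718670, plus strand): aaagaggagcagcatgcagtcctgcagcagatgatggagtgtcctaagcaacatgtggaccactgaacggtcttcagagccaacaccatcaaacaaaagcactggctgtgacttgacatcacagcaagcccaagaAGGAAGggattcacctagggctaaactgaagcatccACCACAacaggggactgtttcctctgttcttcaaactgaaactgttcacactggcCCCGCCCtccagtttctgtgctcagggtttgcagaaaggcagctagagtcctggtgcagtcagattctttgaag
The ETS letters were present in 7 of the 8 members, in 7 of their 9 windows, and in 35.4% of 32851 promoter windows of the same length. The window of Gimap6 did not hold these 6 letters, and other forms of the ETS motif were not searched. The RUNX letters were present in 3 members (Gimap4, Gimap7 and Gimap1) and in 16.8% of all windows. The KLF letters were present in 2 members (Gimap9 and Gimap7) and in 25.6% of all windows. In Gimap3 the ETS letters began 85 bases before the start and in Gimap5 45 bases before it. The Gimap3 and Gimap5 windows were 44.2% identical, within the range of 40.9% to 51.4% over the 28 pairs of members, and shared no run longer than 7 bases. The Gimap9 and Gimap7 windows were 46.9% identical. Among the 28 pairs these ranked 22 and 8 by the identity of their windows. The closest windows were those of Gimap6 and Gimap5 at 51.4%. A match is a description of the letters and was not tested as a binding site.

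The values were in TPM, the count of reads on a gene divided by its exon length and scaled to the same total in each library. The step that 1 read makes in short genes gave about 13200000 reads on genes in Chd8-/- replicate 1, 9240000 in Chd8-/- replicate 2, 9350000 in WT replicate 1 and 10400000 in WT replicate 2. Chd8, the floxed gene, was at 24.7 and 27.6 TPM in the WT and at 14.9 and 11.4 TPM in the Chd8-/- libraries, lower in both by a fitted log2 value of -0.95 ± 0.29 (SE), which did not pass the test (limma adjusted p = 0.455). Foxp3, the factor that defines Tregs, was between 202.8 and 232.1 TPM in all 4 libraries, and the 6 T cell and Treg markers summed to 3413 and 3456 TPM in the WT and to 3624 and 3053 TPM in Chd8-/- replicates 1 and 2. Chd8-/- replicate 2 held the most RNA of myeloid, erythroid and B cells by summed markers. Its 8 myeloid markers summed to 1593 TPM against 25.7 to 183 TPM in the other 3 libraries. The 4 erythroid markers summed to 1500 TPM against 8.5 to 257 TPM, and 6 B cell markers to 140 TPM against 29.7 to 43.9 TPM. The WT libraries held such RNA too, with myeloid sums of 168 and 183 TPM and erythroid sums of 257 and 257 TPM. Lyz2, at 1360.3 TPM, led the myeloid sum of Chd8-/- replicate 2, whereas Cd79b and Alas2 were lowest in that library. None of the 8 myeloid markers was at 0 in Chd8-/- replicate 2, whereas 4 were at 0 in Chd8-/- replicate 1. The 6 markers of CD8 T and NK cells summed to between 52.8 and 93.4 TPM, and the 4 endothelial markers to between 13.1 and 26.6 TPM. Xist was between 500.2 and 843.3 TPM and the Y-linked genes Ddx3y, Kdm5d, Eif2s3y and Uty were at 0 in all 4 libraries, although the study describes both sexes in each genotype.

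The GIMAP genes made up a large pool of RNA in these Tregs, and its size overlapped between the genotypes. The 8 genes summed to 3315 and 3542 TPM in the WT libraries and to 3892 and 2980 TPM in the Chd8-/- libraries. Chd8-/- replicate 1 had the highest sum and Chd8-/- replicate 2 the lowest, so the WT libraries lay between them. The sums made up 0.331% and 0.354% of all TPM in the WT libraries and 0.389% and 0.298% in the Chd8-/- libraries. The sum of the T cell and Treg markers was likewise highest in Chd8-/- replicate 1 and lowest in Chd8-/- replicate 2, but the single markers differed. Il2ra and Ikzf2 had that order, whereas Foxp3 and Ctla4 were highest in Chd8-/- replicate 1 and lowest in WT replicate 1. Both Cd3e and Cd4 were lower in both Chd8-/- libraries. For Cd3e the values were 1547.9 and 1527.6 TPM in the WT and 1309.5 and 1267.2 TPM in the Chd8-/- libraries. Per TPM of the summed markers the family sum was 0.971 and 1.03 in the WT libraries, 1.07 in Chd8-/- replicate 1 and 0.976 in Chd8-/- replicate 2. In bulk RNA, fewer Tregs in a sample and less of a transcript per Treg cannot be told apart, and the part of the other cells in these values was not tested.

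Levels differed much more between the genes than between the libraries. Per length, Gimap3 was the highest member in every library, with 1305.6 and 1396.1 TPM in the WT and 1475.8 and 1204.7 TPM in the Chd8-/- libraries, and it ranked 92 of the 15240 genes by its WT mean. Gimap6 and Gimap4 came next. Gimap3 exceeded Gimap6 by 1.52 to 1.79 times, and Gimap6 exceeded Gimap4 by 1.17 to 1.65 times, in all 4 libraries, although the ranges of Gimap6 and Gimap4 overlapped between libraries. Gimap7 and Gimap1 had near-equal means of 245 and 244 TPM, with Gimap7 the higher in only 1 of 4 libraries, and these neighbours in the order did not differ beyond their spread. Gimap8 had a mean of 96.8 TPM and Gimap9 of 52.1 TPM, Gimap8 being the higher in all 4 libraries. Gimap5 was the lowest on average at 37.1 TPM, and Gimap9 exceeded it in 3 of 4 libraries. Gimap5, whose loss is the best known for lymphopenia, thus had 34.2 to 39.0 times less RNA per length than its close relative Gimap3 in the same libraries. The reads that these genes may share, described above, limit that ratio. Gimap5 ranked 3913 of 15240 by its WT mean.

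**Figure D1:**
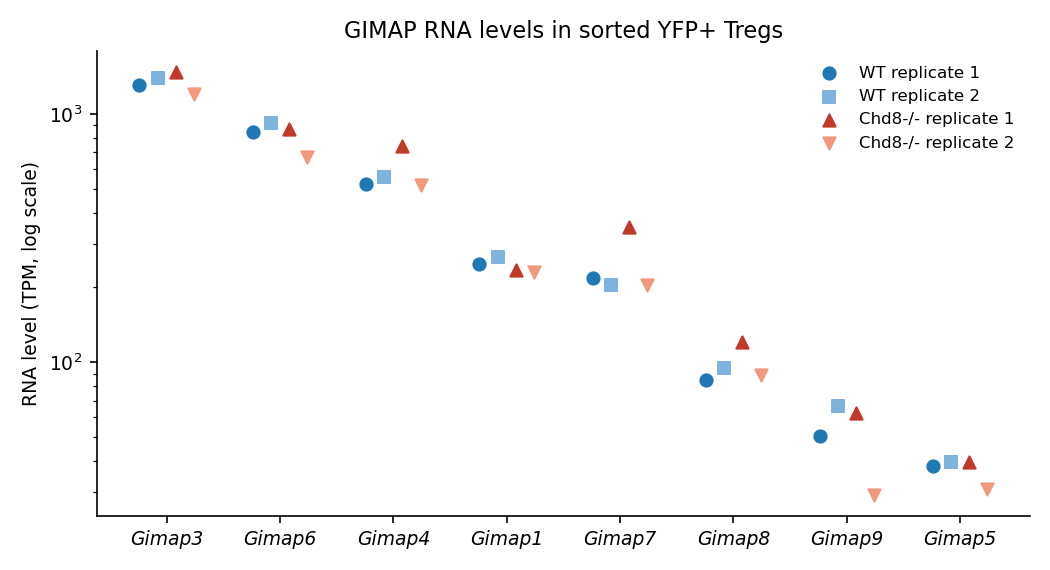
RNA level in TPM on a log scale for the 8 GIMAP genes, ordered by their WT mean, with 1 point per library (2 WT, 2 Chd8-/-). Gimap3 lies at or above 1204.7 TPM and Gimap5 under 40 TPM in every library, and the WT and Chd8-/- points overlap for all genes but Gimap1.

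Relative to their own size, the shares of Gimap3, Gimap6 and Gimap4 in the pool varied less than those of Gimap7 and Gimap9. Gimap3 gave 39.4% and 39.4% of the family sum in the WT libraries and 37.9% and 40.4% in the Chd8-/- libraries. Gimap6 gave 25.6% and 25.9% in the WT and 22.3% and 22.5% in the Chd8-/- libraries, a lower share in both Chd8-/- libraries. Gimap4 gave 15.8% and 15.7% in the WT and 19.0% and 17.4% in the Chd8-/- libraries, a higher share in both. Gimap5 gave 1.15% and 1.12% in the WT and 1.02% and 1.04% in the Chd8-/- libraries, a lower share in both. Gimap8 gave 2.55% and 2.67% in the WT and 3.08% and 2.97% in the Chd8-/- libraries, a higher share in both. The widest range relative to its own size was that of Gimap9, with 1.52% and 1.88% in the WT and 1.6% and 0.983% in the Chd8-/- libraries. In percentage points the ranges of Gimap6, Gimap4, Gimap7, Gimap3 and Gimap1 were wider. Gimap7 gave 6.6% and 5.8% in the WT and 9.0% and 6.87% in the Chd8-/- libraries, a higher share in both. Shares of a common sum are not independent of each other, and no matching count was made over all genes. With 2 libraries per genotype, an exact two-sided permutation test over samples cannot go below p = 0.333, so these shares are given as a description.

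The comparison of Chd8-/- with WT Tregs asked whether loss of CHD8 moved GIMAP expression. None of the 8 members changed at an adjusted p of 0.05 in limma, none had an unadjusted p under 0.05, and none differed by a log2 fold change of 1. Over all genes tested the share called was also 0% (0 of 15240), while 1555 (10.2%) had an unadjusted p under 0.05 and 16.7% differed by a log2 fold change of at least 1 in either direction. The absence of a call is therefore not particular to the family. By fitted log2 fold change 3 members were higher in Chd8-/- and 5 were lower, beside 5873 higher and 9367 lower of the 15240 genes tested. The members' median was -0.08, beside -0.15 over all genes tested. Counted from that median of all genes, 6 of the 8 were higher and 2 (Gimap6 and Gimap9) were lower, so the direction of Gimap1, Gimap3 and Gimap5 turned with the choice of zero.

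Gimap5 and Gimap1 are the members most directly tied to lymphocyte survival. Gimap5 was at 38.2 and 39.5 TPM in the WT and at 39.8 and 30.9 TPM in the Chd8-/- libraries, about 317 to 522 reads each. An unknown part of these reads may be shared with Gimap3. One Chd8-/- library was above both WT libraries and the other below them. The fitted log2 difference was -0.14 ± 0.25 (SE, n = 2 and 2), with a 95% interval of -0.81 to 0.52 and a limma adjusted p of 0.864. Gimap1 was at 247.5 and 264.1 TPM in the WT and at 234.7 and 231.4 TPM in the Chd8-/- libraries. It was the only member whose groups did not overlap, both Chd8-/- libraries being the lower, and 27.8% of all genes tested shared that ordering. The log2 difference was small at -0.13 ± 0.16 (95% interval -0.56 to 0.29, limma adjusted p = 0.798), and relative to the median of all genes it was 0.02.

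Gimap1os is, by its name, a transcript of the strand opposite to Gimap1, and its position was not looked up here. It was at 86 and 78.7 TPM in the WT and at 100 and 67.5 TPM in the Chd8-/- libraries, with the groups overlapping. Whether the counting used strand is not given in the sources used here, so reads of Gimap1 and Gimap1os may not be separated.

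Gimap3 is the closest relative of Gimap5 in the mouse. Its 4 values, given above, lay with both WT libraries between the Chd8-/- libraries. The log2 difference was -0.02 ± 0.17 (95% interval -0.48 to 0.44, limma adjusted p = 0.978). It rested on about 13633 to 21360 reads per library, the most of any member, so that counting error was at most 0.856% of a value.

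Gimap6 and Gimap4 were the other abundant members. Gimap6, which binds an ATG8 protein and takes part in autophagy, was at 847.5 and 918.6 TPM in the WT and at 867.7 and 671.3 TPM in the Chd8-/- libraries. Only Chd8-/- replicate 2 stood below the WT range, and the log2 difference was -0.21 ± 0.19 (95% interval -0.72 to 0.31, limma adjusted p = 0.738). Without Chd8-/- replicate 2 it was -0.02. Gimap4, known to speed the death of T cells after an apoptotic stimulus, was at 522.2 and 557.7 TPM in the WT and at 741.4 and 518.7 TPM in the Chd8-/- libraries. Only Chd8-/- replicate 1 stood above the WT range, and the log2 difference was 0.20 ± 0.23 (95% interval -0.41 to 0.81, limma adjusted p = 0.791).

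Gimap7 had the highest fitted value of the family. This member, whose GTP hydrolysis is switched on when molecules of it pair, was at 218.9 and 205.4 TPM in the WT and at 350.5 and 204.8 TPM in the Chd8-/- libraries. Chd8-/- replicate 1 stood well above the other 3 libraries, which were alike. The log2 difference was 0.34 ± 0.31 (95% interval -0.49 to 1.16, limma adjusted p = 0.738), and it was -0.05 without Chd8-/- replicate 1 and 0.72 without Chd8-/- replicate 2.

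Gimap9 had the lowest fitted value. It was at 50.4 and 66.5 TPM in the WT and at 62.4 and 29.3 TPM in the Chd8-/- libraries, the lowest value resting on about 256 reads. Chd8-/- replicate 2 stood below all 3 other libraries, and Chd8-/- replicate 1 lay inside the WT range. The log2 difference was -0.43 ± 0.44 (95% interval -1.60 to 0.75, limma adjusted p = 0.766). Without Chd8-/- replicate 2, the library with the most myeloid, erythroid and B cell RNA, it was 0.11. Gimap8, the longest member and one with several GTPase domains, was at 84.4 and 94.6 TPM in the WT and at 120 and 88.4 TPM in the Chd8-/- libraries. Only Chd8-/- replicate 1 stood outside the WT range, and the log2 difference was 0.20 ± 0.24 (95% interval -0.44 to 0.84, limma adjusted p = 0.796).

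**Figure D2:**
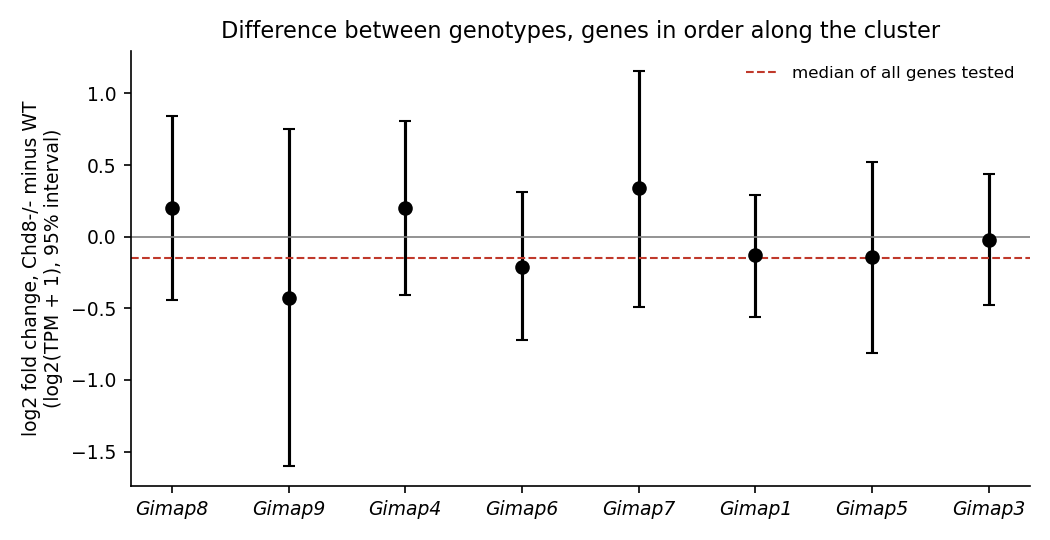
Fitted log2 fold change (Chd8-/- minus WT, on log2(TPM + 1)) of each GIMAP gene in its order along the cluster, with 95% intervals from limma and the median of all genes tested as a dashed line. Every interval spans 0, and the widest is that of Gimap9, from -1.60 to 0.75.

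For 7 of the 8 members, all but Gimap1, the Chd8-/- libraries lay farther apart than the WT libraries. Chd8-/- replicate 1 exceeded Chd8-/- replicate 2 in all 8 members, and in 61.3% of all genes tested. The median log2 difference between these libraries was 0.40 over the members and 0.20 over all genes. By ratio it was widest for Gimap9 at 2.13 (95% counting interval 1.85 to 2.46), Gimap7 at 1.71 (1.61 to 1.82) and Gimap4 at 1.43 (1.38 to 1.48), and nearest to 1 for Gimap1 at 1.01 (0.954 to 1.08). The counting interval left out 1 for 7 of the 8 members, all but Gimap1. The WT libraries were closer to each other. WT replicate 1 was below WT replicate 2 in 7 of 8 members, with a median log2 difference of -0.10, and the ratios ran from 0.758 for Gimap9 to 1.07 for Gimap7. Their counting interval left out 1 for 6 of the 8 members. Counting intervals cover the sampling of reads only. The gap between the Chd8-/- libraries went with the myeloid, erythroid and B cell RNA of replicate 2, and its part in the gap was not tested.

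**Figure D3:**
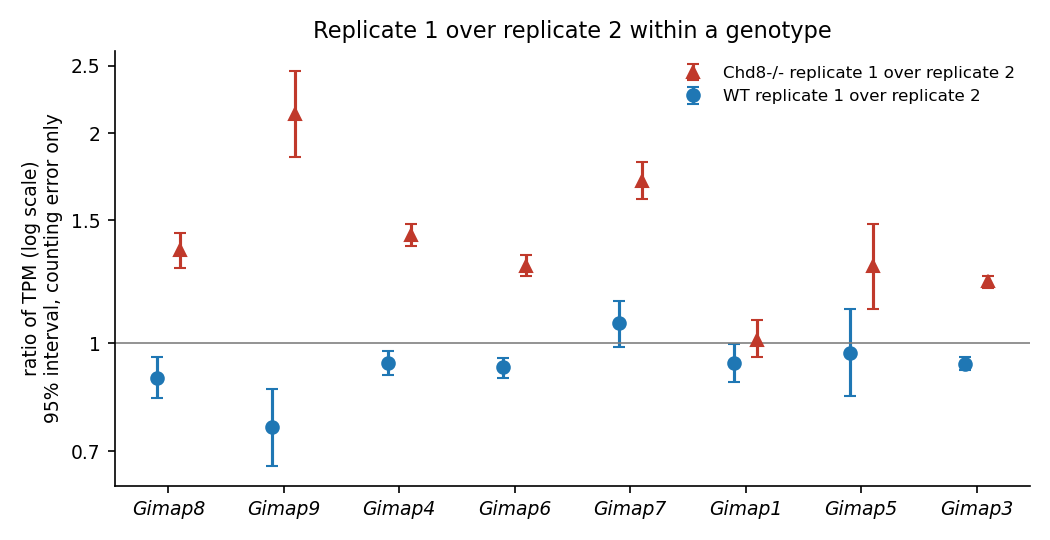
Ratio of TPM between replicate 1 and replicate 2 within each genotype, on a log axis, with 95% intervals for counting error only. The Chd8-/- ratios run from 1.01 for Gimap1 to 2.13 for Gimap9, and the WT ratios from 0.758 for Gimap9 to 1.07 for Gimap7.

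Set out along the chromosome, the Chd8-/- libraries did not depart evenly from the WT mean. In log2 units from that mean, Chd8-/- replicate 1 was highest at Gimap7 (0.72), followed by Gimap4 (0.46) and Gimap8 (0.42). The neighbours of Gimap7 on both sides, Gimap6 and Gimap1, were near the WT mean in that library. Chd8-/- replicate 2 was lowest at Gimap9 (-0.96), followed by Gimap6 (-0.39) and Gimap5 (-0.32). The neighbours of Gimap9, Gimap8 and Gimap4, were near the WT mean in Chd8-/- replicate 2. The medians over the 8 members were 0.12 for Chd8-/- replicate 1 and -0.15 for Chd8-/- replicate 2, beside -0.04 and -0.25 over all genes tested.

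**Figure D4:**
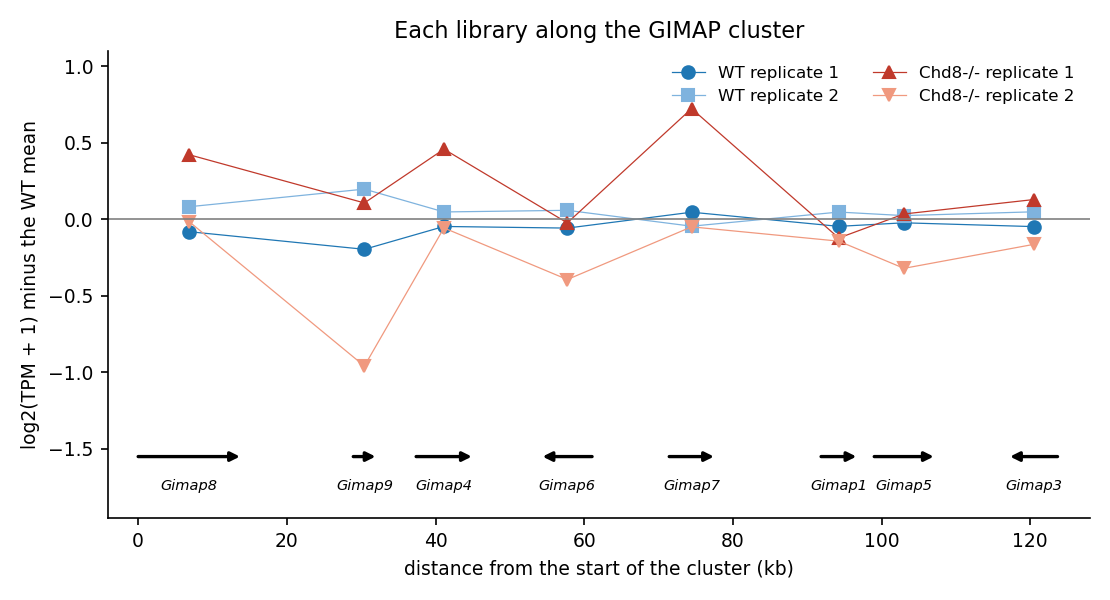
Each library's log2(TPM + 1) minus the WT mean for the 8 genes, placed by their distance in kb from the start of the 123.7 kb cluster, with arrows for the extent and strand of each gene. Chd8-/- replicate 1 has its highest point at Gimap7 and Chd8-/- replicate 2 its lowest point at Gimap9, while the WT libraries stay close to 0.

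Genes on either side of the cluster were at low levels in these Tregs. The list held 38 genes, the other RefSeq genes within 250 kb and Gimap1os, which was added by its name. Of these, 24 were in the table and 11 passed the filter on low values, among them Gimap1os. Beside Gimap1os, at 67.5 to 100 TPM, the highest was Lrrc61 at 17.7 to 26.7 TPM. Rarres2, which encodes the chemoattractant chemerin, was the sole gene of these 11 that was higher in both Chd8-/- libraries, with 8.6 and 6.6 TPM in the WT and 18.2 and 14.7 TPM in the Chd8-/- libraries. Its log2 difference was 1.02 ± 0.33 (limma adjusted p = 0.465), and 14.8% of all genes tested had both Chd8-/- libraries above both WT libraries. The other 10 had fitted values below 0, as had 9367 of all 15240 genes tested. In 5 of the 10 both Chd8-/- libraries were under both WT libraries (27.8% of all genes tested). The median log2 difference of the 11 was -0.39, beside -0.15 over all genes tested. The lowest values were those of Gm38804, at 5.4 and 8.9 TPM in the WT and 3.2 and 2.1 TPM in the Chd8-/- libraries, with a log2 difference of -1.14, and of AI854703, at -0.99. Tmem176a and Tmem176b, the genes just past Gimap3, did not exceed 2.1 TPM in any library. No neighbour but Gimap1os reached the level of Gimap5, the lowest member, in either genotype.

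Genes of the proteins that GIMAPs work with were next. All 13 listed partners (ATG8 family, GSK3 and the BCL2 family) were tested. Of these, 5 were higher and 8 lower in Chd8-/-, beside 5873 higher and 9367 lower over all genes tested. None passed the test, none had an unadjusted p under 0.05, and their median log2 difference was -0.02. The highest was Gabarapl1, an ATG8 gene, at 10.5 and 31.3 TPM in the WT and 19.5 and 94.8 TPM in the Chd8-/- libraries, a log2 difference of 1.20 ± 0.94 with overlapping groups. Bax, which permeabilizes mitochondria in apoptosis, followed at 0.27 ± 0.47. The lowest were Bcl2l1, which encodes the survival protein BCL-XL, at -0.53 ± 0.39 and Gsk3a at -0.51 ± 0.26. Bcl2 itself, which keeps resting T cells alive, was at 192.3 and 248.1 TPM in the WT and 236.8 and 198.4 TPM in the Chd8-/- libraries, a log2 difference of -0.01.

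Genes of resting T cells were mostly lower in the Chd8-/- libraries, though none passed the adjusted test. Of 12 listed genes, all tested, 10 were lower and 2 higher in Chd8-/-, beside 9367 lower and 5873 higher over all genes tested. In 8 of them both Chd8-/- libraries were below both WT libraries, an ordering that 27.8% of all genes tested had. An unadjusted p under 0.05 was reached by 7 of the lower genes and 1 higher gene, Il7r, beside 10.2% of all genes tested. The median log2 difference was -0.72, with the smallest limma adjusted p at 0.373. Bach2, a repressor that holds T cells in a resting state, was lowest, at 19.2 and 24.6 TPM in the WT and 7.0 and 8.1 TPM in the Chd8-/- libraries, a log2 difference of -1.41 ± 0.32. Foxp1, a factor of quiescence, followed at -1.20 ± 0.32. The highest were Il7r, the receptor for the survival cytokine IL-7, at 149.7 and 126.7 TPM in the WT and 504.5 and 366.8 TPM in the Chd8-/- libraries (1.64 ± 0.23), and Satb1 at 0.55 ± 0.31. In both, the Chd8-/- libraries were above the WT libraries, against the direction of the other 10 genes.

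Genes of activated Tregs were mostly higher. Of 15 listed and tested, 11 were higher, all 11 with both Chd8-/- libraries above both WT libraries (14.8% of all genes tested), and 4 were lower, 2 of them with both Chd8-/- libraries below both WT libraries. The median log2 difference was 0.73. An unadjusted p under 0.05 was reached by 8 higher and 2 lower genes, beside 10.2% of all genes tested, and none passed the adjusted test (smallest limma adjusted p = 0.373). The highest were Itgae, the integrin CD103 of tissue Tregs, at 23.0 and 26.8 TPM in the WT and 120.4 and 99.2 TPM in the Chd8-/- libraries (2.09 ± 0.23), and Batf, a factor of effector Tregs (1.52 ± 0.27). The lowest were Gzmb, which encodes granzyme B (-2.16 ± 0.63), and Il10, which encodes a suppressive cytokine (-1.29 ± 0.94).

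The interferon-inducible GTPases, which share the GTPase activity but not the locus of the GIMAPs, were higher as well. Of 14 listed and tested, 13 were higher in Chd8-/- and 1 was lower, with 10 in which both Chd8-/- libraries were above both WT libraries (14.8% of all genes tested). The median log2 difference was 0.56, 7 had an unadjusted p under 0.05 (10.2% of all genes tested) and none passed the adjusted test (smallest limma adjusted p = 0.373). Gbp2 was highest, at 125.3 and 120.8 TPM in the WT and 266.9 and 314.7 TPM in the Chd8-/- libraries (1.23 ± 0.18), followed by Gbp3 at 0.85 ± 0.32. Gbp9 at -0.28 ± 0.23 and Gbp6 at 0.15 ± 0.24 were lowest. Setting the lists side by side, the members' median of -0.08 lay nearer to the -0.15 of all genes than those of the resting, activated and interferon lists did, and no test of the difference between lists was made.

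**Figure D5:**
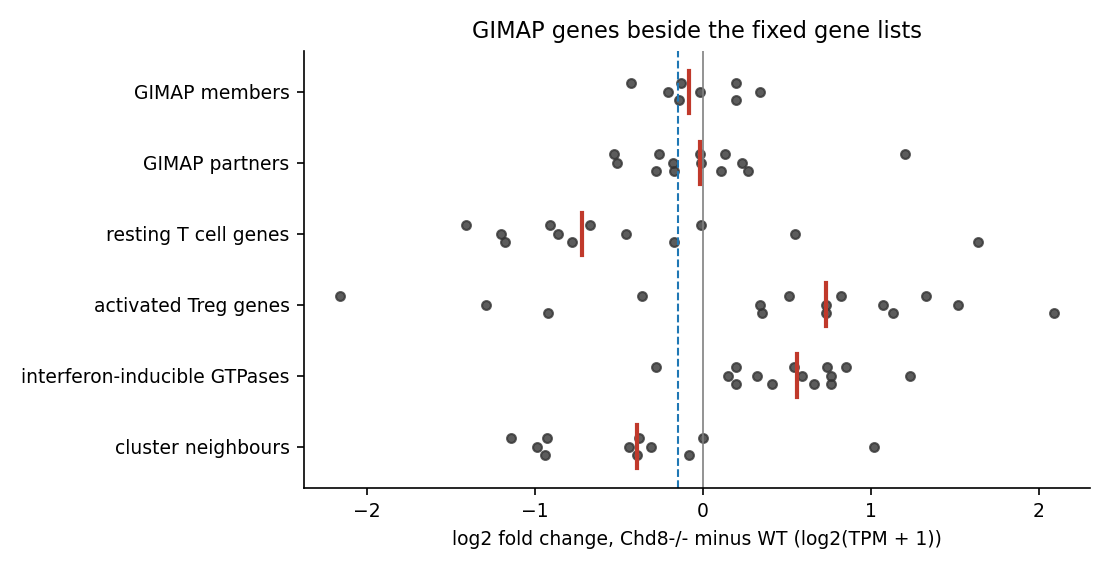
Fitted log2 fold change (Chd8-/- minus WT) of each tested gene in the GIMAP family and the 5 gene lists, with 1 point per gene, the median of each list as a red bar and that of all genes tested as a dashed line. The GIMAP genes lie between -0.43 and 0.34, whereas the resting list has its median at -0.72 and the activated list at 0.73.

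The mean pattern of the members over the libraries was also shared by many genes. Over the 4 libraries the genes most like the mean of the members, by Pearson correlation of centred log2 values and with a log2 range of at least 1, were Mcfd2, 1810037I17Rik, Gm42105, Sorbs3 and 1700029J07Rik. Of 7654 genes with that range, 650 correlated at 0.9 or more. With 4 points that share depth and cell makeup, this is a description of which genes followed the mean of the members. That mean was highest in Chd8-/- replicate 1 and lowest in Chd8-/- replicate 2, an order that not every member had. Gimap1, Gimap6 and Gimap9 were highest in WT replicate 2, and Gimap8 was lowest in WT replicate 1. Between members the correlation ran from -0.428 (Gimap7 and Gimap1) to 0.987 (Gimap8 and Gimap4). The most abundant of the genes most like the mean, 1810037I17Rik, was at 79.1 and 100.8 TPM in the WT and at 133.5 and 52.2 TPM in the Chd8-/- libraries.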

How the data were processed

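RNA-seq of 2 WT and 2 Chd8-/- libraries was used. After trimming, the authors used STAR 2.6.1e for alignment to mm10, discarded duplicate reads, ran featureCounts 1.6.2 over RefSeq genes and deposited TPM, given to 0.1. The sources name both a 3′ assay and a standard Illumina kit, and in a 3′ assay dividing by exon length would lower long genes, which bears on levels compared between genes. Removal of duplicates can lower abundant genes. The scale of analysis was log2(TPM + 1), over genes reaching 1 TPM in at least 2 libraries. Chd8-/- was set against WT in limma 3.58.1 under R 4.3.3 (eBayes with trend, two-sided, Benjamini-Hochberg over all genes tested), checked on simulated data. The study names 1 male and 1 female mouse per genotype for RNA-seq, but the Y-linked genes were at 0 in all 4 libraries. That each library came from its own mouse rests on that description. The p-values measure the spread between these libraries. Samples of the genotypes share only replicate numbers.

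Reads were recovered from the step of 1 read in genes under 150 bases. At a tolerance of 0.1, 98.7% to 99.7% of values up to 15 steps came out whole. Lengths came from RefSeq GRCm38.p6 for 90.0% of names, so reads are approximate and no count test was run. Without molecular identifiers, intervals cover counting error only. The 8 members, Chd8, the cluster neighbours, the 2 highest and 2 lowest genes of each list, and the 5 genes of most similar pattern are named by rule. Bcl2 and the markers were named in addition. The members and lists were chosen with earlier results of these data known. Promoters of all 8 members (9 windows) were matched by symbol in RefSeq. Alternatives were another pseudocount, another filter, quantile normalization, a replicate block, no trend, leaving out each library, and a centred scale. The ATAC-seq and CHIP-seq peak tables are on mm39, whose annotation was not used here, so they were not analysed here.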

Additional observations from a re-analysis of the deposited data

How the results depend on the processing

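No member and no listed gene passed an adjusted p of 0.05 in limma under another pseudocount, another filter, quantile normalization, the replicate block or no trend. The centred scale only shifted the fitted values and made no new test. Fits without a library leave 1 library in a group and are given by their fitted values. Of 96 member values, 86 kept their direction, but many of them could not have turned. In this balanced design the replicate block, no trend and both filters leave the fitted log2 value of a member unchanged. Without Chd8-/- replicate 1 Gimap4 (-0.06), Gimap7 (-0.05) and Gimap8 (-0.02) turned lower, and all 8 members were then lower. Without Chd8-/- replicate 2 Gimap3 (0.13), Gimap5 (0.03) and Gimap9 (0.11) turned higher, and 6 of 8 were then higher. Without WT replicate 2 Gimap3 was at 0.03. With the median of all genes set to 0, a scale chosen after seeing the data, Gimap1 (0.02), Gimap3 (0.13) and Gimap5 (0.01) turned higher and the members' median was 0.07. Leaving out 1 library at a time, Gimap1 ran from -0.18 to -0.09, Gimap3 from -0.16 to 0.13, Gimap4 from -0.06 to 0.46, Gimap5 from -0.32 to 0.03, Gimap6 from -0.39 to -0.02, Gimap7 from -0.05 to 0.72, Gimap8 from -0.02 to 0.42 and Gimap9 from -0.96 to 0.11, and the members' median ran from -0.15 to 0.12. Only the filter at a mean TPM of 5 called any gene, 2 in all: Cdkn1a and Mir7649, both at an adjusted p of 0.0347 and named after their values were seen. Quantile normalization moved the median of all genes from -0.15 to 0.00 and kept 3 members higher and 5 lower. Same-numbered samples did not deviate together (r = -0.0117 over 15240 genes), and the replicate block called 0 members and 0 genes, with 1336 at an unadjusted p under 0.05 against 1555 without it. The cause of these shifts was not tested. Thresholds for the ATAC-seq and CHIP-seq peaks were not run. Counting error was 0.684% to 6.25% of a member's value.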
